A study of Mus musculus with 4 samples.

Results

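The 10 guidance genes covered are the class 3 semaphorins Sema3a, Sema3b, Sema3c, Sema3d, Sema3e, Sema3f and Sema3g, the neuropilins Nrp1 and Nrp2, and the plexin Plxnd1. They are a chosen set and not 1 gene family, and are called the family only for short. Peaks near them from Flag ChIP-seq of a Flag-tagged Isl1-Lhx3 fusion were taken from the deposited peak list. A peak was assigned to the protein-coding gene whose transcription start (GENCODE M1, mm9) lay nearest to its maximum. By this rule 4 of the 2454 nuclear peaks belonged to the family, 1 each at Nrp2, Sema3e, Sema3f and Sema3a. The other 6 genes had no assigned peak.

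The libraries came from mouse iMN-ESCs, an A172LoxP embryonic stem cell line into which a Dox-inducible transgene for the Flag-Isl1-Lhx3 fusion had been inserted. Flag ChIP was carried out with Dox (2 µg/mL, n = 2 libraries) and without Dox (n = 2 libraries). Both groups carried the transgene. Both had been grown as embryoid bodies under retinoic acid at 0.5 µM, for 2 days alone and then for 4 days with or without Dox. Both received LIF for 16 hours before harvest. The fusion joins Isl1 and Lhx3, both LIM-homeodomain factors, in 1 transgenic protein made in a single cell line. Flag ChIP was directed at this fusion and not at the endogenous proteins. Whether the listed peaks depend on its induction by Dox was not tested. The list gives 1 ChIP score, 1 background score and 1 tag count for each peak, with no value per library. Hence no spread between libraries could be given, no test between Dox and no Dox was possible, and all values are those of single peaks. The assay holds no expression, so the labelled cell type could not be checked against marker genes.

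Class 3 semaphorins are secreted proteins that steer growing axons and vessels, mostly by repulsion. Most of them bind a neuropilin, which holds the ligand, while a plexin passes the signal into the cell. Sema3e is an exception, since it can act directly on Plxnd1. In the mouse spinal cord, Sema3a acting through Nrp1 and Sema3f acting through Nrp2 help to time and direct the growth of motor axons into the limb. The match of Sema3e in motor neuron pools with Plxnd1 in sensory neurons shapes which of them connect.

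The sequence under each of the 4 maxima is shown because LIM-homeodomain factors bind sites built on the core TAAT, read as ATTA on the other strand. Each line holds 200 bases of mm9 centred on the maximum, on the plus strand of the genome. Capitals mark every TAAT and ATTA. The windows are chr1:62795025-62795224 for Nrp2, chr5:13983768-13983967 for Sema3e, chr9:107626224-107626423 for Sema3f and chr5:13320243-13320442 for Sema3a.
Nrp2: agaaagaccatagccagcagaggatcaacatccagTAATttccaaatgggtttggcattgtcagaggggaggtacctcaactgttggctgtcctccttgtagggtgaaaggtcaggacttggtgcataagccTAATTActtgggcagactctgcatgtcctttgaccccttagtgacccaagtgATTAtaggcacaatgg
Sema3e: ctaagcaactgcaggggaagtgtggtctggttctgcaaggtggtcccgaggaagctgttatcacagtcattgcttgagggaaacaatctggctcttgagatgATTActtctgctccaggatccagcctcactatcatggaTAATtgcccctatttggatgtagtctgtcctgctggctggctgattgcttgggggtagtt
Sema3f: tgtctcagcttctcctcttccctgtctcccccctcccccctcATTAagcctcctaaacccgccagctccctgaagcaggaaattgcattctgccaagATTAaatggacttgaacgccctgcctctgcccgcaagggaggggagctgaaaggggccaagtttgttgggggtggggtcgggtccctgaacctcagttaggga
Sema3a: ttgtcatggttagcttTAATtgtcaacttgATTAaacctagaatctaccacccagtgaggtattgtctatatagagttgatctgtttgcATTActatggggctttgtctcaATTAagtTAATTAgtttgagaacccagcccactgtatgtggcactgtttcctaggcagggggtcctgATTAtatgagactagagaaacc

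The family had a peak at 4 of 10 genes (40.0%, exact binomial 95% interval 12.2 to 73.8), against 1826 of all 22367 protein-coding genes (8.16%). All 4 peaks lay within 100 kb of a start, where 6.91% of protein-coding genes had a peak. The same 4 genes held them when the nearest start of any annotated gene was used, by which 5.2% of genes had a peak. Many of the genes have wide surroundings, though not all. The territory of a gene, the bases nearest to its protein-coding starts, had a median of 204.6 kb in the family and 45.5 kb over all protein-coding genes. Among the 2946 protein-coding genes with a territory of at least 204.6 kb, 24.7% had a peak. Of the family, only Nrp2, Sema3a and Sema3e, with a peak, and Sema3c and Sema3d, without one, had territories this wide. The family's territories together spanned 2.69 Mb and held 1.49 peaks per Mb, against 0.93 peaks per Mb over all territories. The family's rate rests on only 4 peaks, and its difference from the rate over all territories was not tested. Territories were 45.7 to 726.6 kb for the 4 genes with a peak and 17.0 to 562.9 kb for the 6 without. The genes were picked with earlier results of this list known, so these shares describe the family and were given no test.

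All 4 peaks scored above the median of the list, and none was among its strongest. The ChIP scores were 70.66 at Nrp2, 67.45 at Sema3e, 59.95 at Sema3f and 51.92 at Sema3a. Over all peaks the median was 40.95 and the quartiles were 34.26 and 54.07, with scores of 29.98 to 321.18. The family's peaks therefore ranked 297, 336, 459 and 676 of 2454 in the same order. Nrp2, Sema3e and Sema3f lay above the upper quartile of the list and Sema3a just below it. The plot of scores shows the 4 values within the list and against their background scores.

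**Figure D1:**
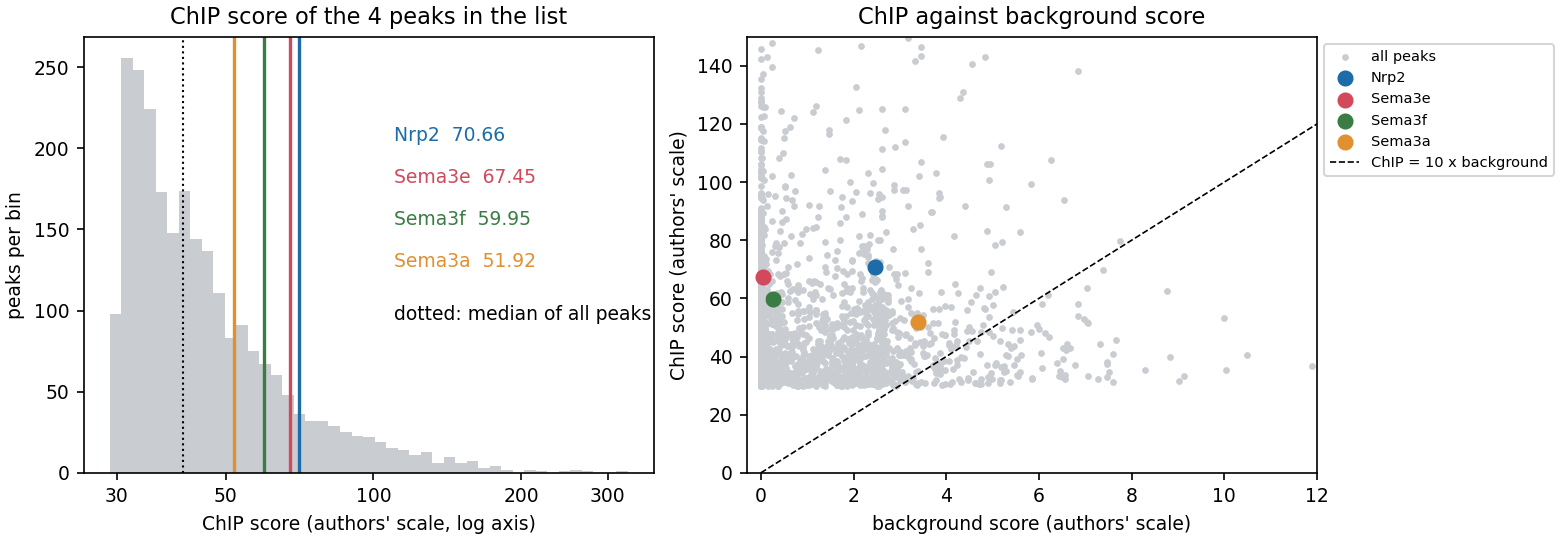
Left, ChIP scores of all 2454 nuclear peaks (grey bars, log axis) with the family's 4 peaks as coloured lines and the list median as a dotted line. Right, ChIP score against background score for the same peaks, with 32 peaks beyond the axes not drawn. The 4 family peaks lie between 51.92 and 70.66, right of the median of 40.95, and all lie above the dashed line at 10 times the background score.

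Of the ligand genes, Sema3e had the peak with the highest ChIP score. It lay between genes, in a listed interval centred on its maximum (chr5:13983618-13984117), with its maximum 41.41 kb upstream of the nearest Sema3e start, which belongs to a retained-intron transcript. From the start of the protein-coding transcript the peak lay at -41.45 kb, where a minus sign means upstream. The next nearest protein-coding gene was Speer3, at 192.25 kb. The called region, which the list gives apart from that interval, was 688 bp long and held 43 tags (31.1 to 57.9, 95% Poisson interval for counting error). Its background score of 0.04 was the lowest of the 4 peaks, and no other listed peak lay within 100 kb.

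Sema3f, whose product repels axons through Nrp2, had the peak nearest to a start in the family. It lay between genes at chr9:107626074-107626573, 13.52 kb upstream of the single annotated Sema3f start. Its region was the shortest of the 4, at 314 bp, and held 34 tags (23.5 to 47.5). The background score was 0.27. Neighbouring starts were those of Gnat1 at 44.4 kb and Rbm5 at 47.01 kb. The window was the richest in GC of the 4, at 58.0%, against a mean of 48.2% (SD 5.3) over all peaks.

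Sema3a, whose product repels axons through Nrp1, had the lowest ChIP score and the widest region of the 4 peaks. By tags it stood above Sema3e and Sema3f, at rank 665 of the list against 722 and 1075. The peak, at chr5:13320093-13320592, lay 76.44 kb upstream of the nearest Sema3a start. A farther start of the same gene lay 194.75 kb on the other side, so that the peak fell in intron 3 of that long transcript, which alone of 7 annotated transcripts spans it. The region measured 779 bp and held 45 tags (32.8 to 60.2). Its background score of 3.39 was the highest of the 4 and came to 6.53% of the ChIP score. The window was AT-rich, with 40.0% GC. The nearest start of another protein-coding gene was that of the predicted gene Gm10108 at 198.56 kb, and on the other side of the peak it was that of Speer3 at 471.28 kb.

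Nrp2, which encodes the neuropilin used by Sema3f, was the receptor gene with a peak. The peak, at chr1:62794875-62795374, lay inside the gene, 44.85 kb downstream of its start, in intron 6 of the longest protein-coding transcript and 0.58 kb from an exon. This intron is 1.8 kb long. The region of 484 bp held 56 tags (42.3 to 72.7), or 11.57 per 100 bp. The Sema3f region was nearly as dense, with 10.83 tags per 100 bp, whereas Sema3e had 6.25 and Sema3a had 5.78, against a median of 6.61 over all peaks. The background score at Nrp2 was 2.47. The nearest start of another protein-coding gene was that of Ino80d, 343.38 kb away.

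The 4 peaks shared their distance class. All were beyond 10 kb and within 100 kb of a start, as were 48.5% of all peaks, and none was at a promoter, although 33.0% of all peaks lay within 10 kb of a protein-coding start. At Sema3e, Sema3f and Sema3a the peak was upstream of the nearest start and at Nrp2 downstream, while 51.3% of all peaks were upstream. Each was the only maximum of its region, in a list of 2454 nuclear peaks in 2301 regions. None of the 4 peaks had another listed peak within 100 kb, a trait whose share over all peaks was not computed. The nearest other peaks lay 343.6 kb from the Nrp2 peak, 447.2 kb from Sema3a, 615.04 kb from Sema3f and 663.52 kb from Sema3e. In the last case the neighbour was the Sema3a peak itself, since both genes lie in the same part of chromosome 5. The map of the 4 loci shows these positions.

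**Figure D2:**
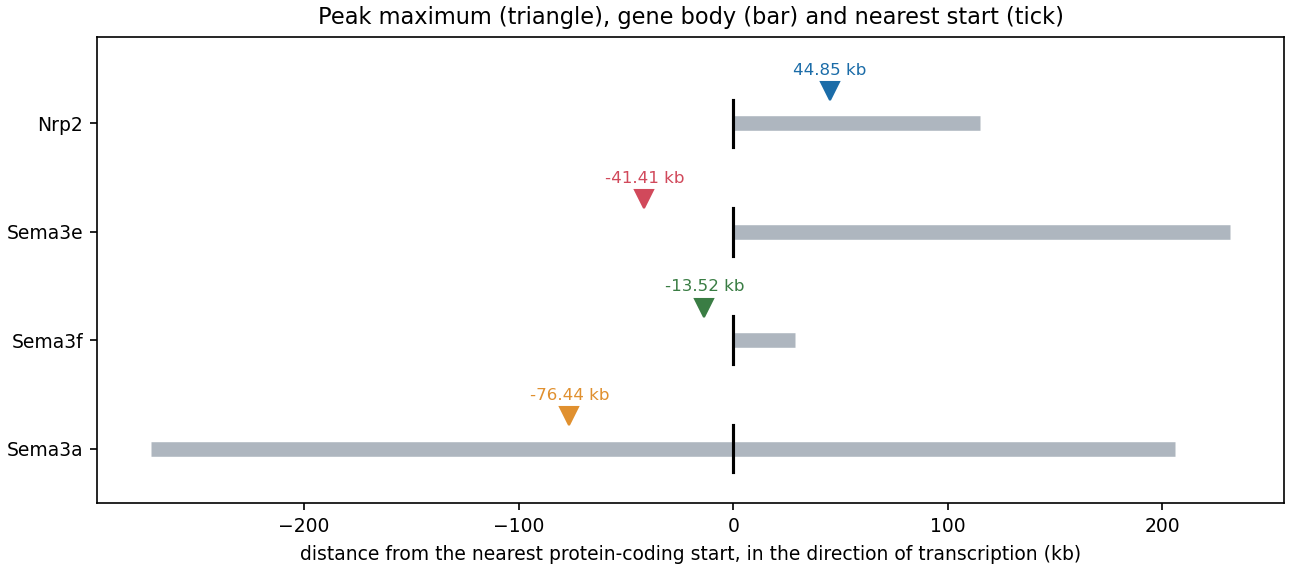
Position of each peak maximum (triangle) relative to the nearest protein-coding start (black tick at 0) and the gene body (grey bar), in kb in the direction of transcription. The Sema3e and Sema3f peaks lie outside the genes at -41.41 and -13.52 kb, the Nrp2 peak inside the gene at 44.85 kb, and the Sema3a peak at -76.44 kb within the gene body, which extends upstream to a farther start.

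The background score was well below the ChIP score at all 4 peaks, and it differed among them. Over all peaks its median was 0.34 and its upper quartile 2.21. Nrp2 (2.47) and Sema3a (3.39) lay above that quartile, and Sema3f (0.27) and Sema3e (0.04) below the median. As a percent of the ChIP score it was 3.5 at Nrp2 and 6.53 at Sema3a, against a list median of 0.72. The ChIP score was 28.6 times the background score at Nrp2, 15.3 times at Sema3a, 222.0 times at Sema3f and 1686.2 times at Sema3e, the last against a background score close to 0. All 4 thus passed a ratio of 10, as did 94.6% of the list. The file does not say what the background score was measured on, so these ratios do not compare Dox with no Dox.

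No ligand other than Sema3a, Sema3e and Sema3f had a peak. Sema3b, which lies near Sema3f on chromosome 9, had the Sema3f peak as its nearest one, 114.76 kb from its start, and a territory of 21.0 kb. For Sema3d the nearest listed peak was weak (score 31.31) and lay 489.63 kb away, closer to the predicted gene Gm10481, although Sema3d had a large territory of 562.9 kb. Sema3g, with the smallest territory (17.0 kb), lay 744.1 kb from the nearest peak, which was assigned to Dcp1a. For Sema3c, a ligand with roles in the developing heart, the nearest peak (score 73.6) was 994.43 kb away and assigned to Gnai1.

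Neither Nrp1, the main Sema3a receptor, nor Plxnd1, the Sema3e receptor, had a peak. At Nrp1 the nearest peak (chr8:131062226-131062725, score 41.22) lay 33.11 kb past the 3′ end of the gene. It was 179.5 kb from the Nrp1 start but nearer, at -147.08 kb, to that of Itgb1, an integrin subunit gene, to which it was therefore assigned. When peaks in a gene body or within 50 kb of its ends were counted instead, Nrp1 gained this peak, and 5 of the 10 genes had one, against 14.4% of all protein-coding genes. Plxnd1 was the member farthest from any listed peak, at 2260.19 kb. The list holds called peaks only, with a lowest score of 29.98, so weaker binding at these 6 genes would not appear in it. The plot of nearest peaks sets the 10 genes side by side.

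**Figure D3:**
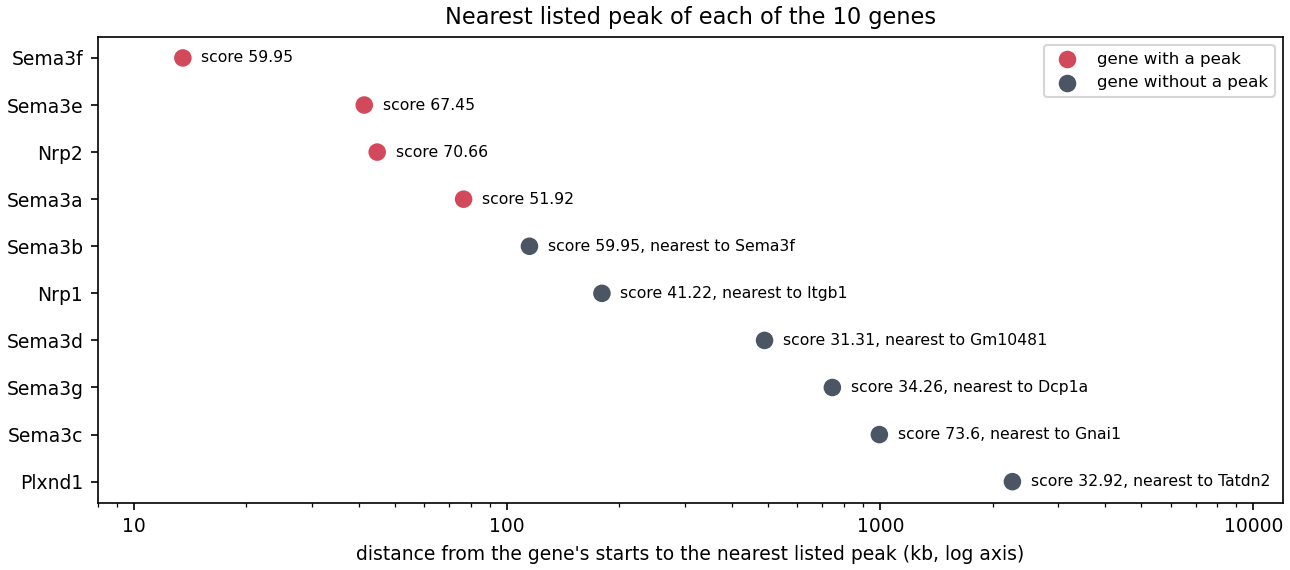
Distance from the starts of each of the 10 genes to the nearest listed peak (log axis), with that peak's ChIP score. The 4 genes with an assigned peak lie at 13.52 to 76.44 kb and the 6 without one at 114.76 to 2260.19 kb, each label naming the gene that the peak was nearest to.

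The windows printed above all held at least 1 homeodomain core, as did 94.2% of all peaks, 66.8% of flanks and 5 of the 8 flanks of these 4 peaks. A flank is a stretch of the same length centred 1 kb to either side of a maximum. The number of cores differed among the windows. The Sema3a window had 7 matches to ATTA on either strand, Nrp2 had 4, and Sema3e and Sema3f had 2 each, against a median of 3 over all peaks and 1 over flanks. A match to TAATTA counts as 2 of these, as it reads TAAT and ATTA. As many cores as in the Sema3a window were found in 3.7% of all peaks. A core was centred 0.5 bases from the maximum at Sema3f, 4.5 at Sema3e, 8.5 at Sema3a and 34.5 at Nrp2. This distance was not computed for all peaks or for flanks.

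The palindrome TAATTA, in which both forms of the core overlap, was in 2 of the 4 windows, 33 to 38 bases after the maximum at Nrp2 and 19 to 24 bases after it at Sema3a. It was in 839 of all 2454 peaks (34.2%) and in 318 of 4908 flanks (6.48%), and in none of the 8 flanks of the family's peaks. The related TAATTG was in the Sema3e and Sema3a windows, as in 30.2% of peaks and 7.64% of flanks. The Sema3f window held neither and had plain ATTA cores only.

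Sema3a was the one member with separate cores in close pairs. An ATTA 12 bases after the maximum was followed, after 3 bases, by the TAATTA described above. This arrangement, ATTA with 3 bases and then TAAT, was in 4.97% of peaks and 0.611% of flanks. The same bases read as TAAT repeated after 5 bases on the other strand, which was in 6.03% of peaks and 1.24% of flanks. A TAAT and an ATTA with 10 bases between them lay farther out, in an arrangement found in 1.47% of peaks and 0.591% of flanks. Over 39 arrangements with 0 to 12 bases between the cores, 38.0% of peaks and 14.9% of flanks had at least 1, and the Nrp2, Sema3e and Sema3f windows had none.

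The Sema3a window held ATGCAAA, 7 bases of the octamer bound by POU factors, on the minus strand 15 to 9 bases before the maximum, sharing 2 bases with an ATTA core. It was in 9.01% of peaks and 4.12% of flanks. The Sema3e window held the SOX site ATTGTT on the minus strand 18 to 13 bases before the maximum, as did 14.3% of peaks and 10.8% of flanks. The E-box CAGCTG (13.9% of peaks, 8.95% of flanks) and the E-box CATATG (2.65% of peaks, 5.32% of flanks) were in none of the 4 windows. The series title names STAT3, and neither the relaxed STAT site TTCNNNGAA (4.97% of peaks, 5.87% of flanks) nor the strict site TTCCNGGAA (0.733% and 0.856%) was in any of the 4. These matches describe 11 searched letter patterns on both strands, and a missing match says only that the letters are not in the window.

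**Figure D4:**
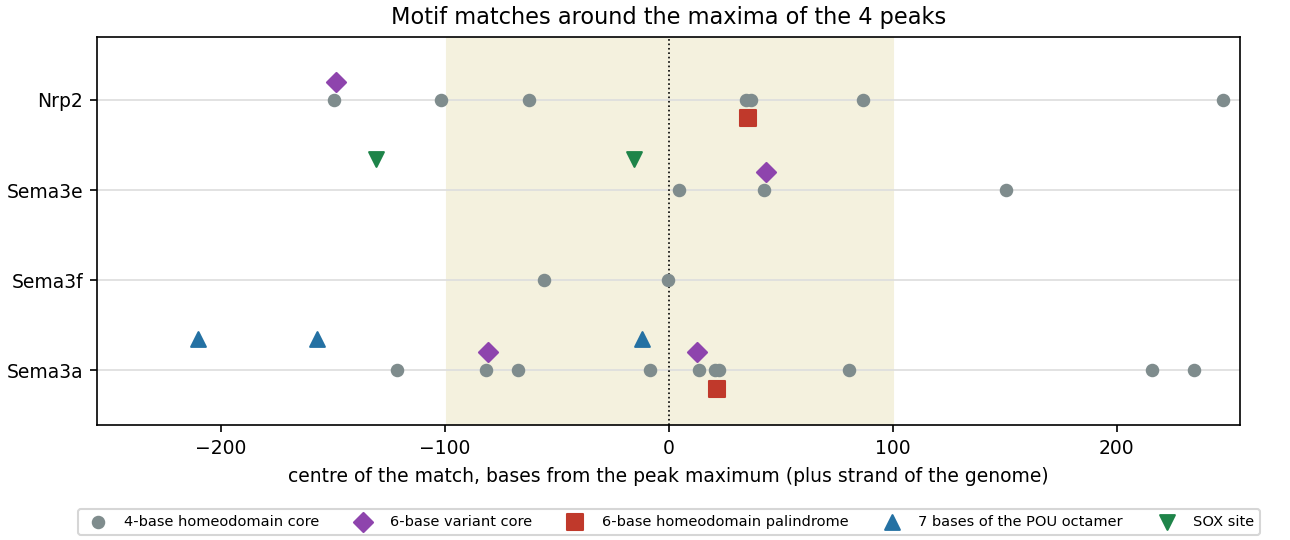
Centres of motif matches in 500 bases around the maximum of each of the 4 peaks, with the 200-base window shaded and the maximum at 0. The Nrp2 and Sema3a windows each hold 1 palindrome (red squares), Sema3e and Sema3a hold the variant core (purple diamonds), and Sema3f holds 2 plain cores, 1 of them at the maximum.

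Other genes of semaphorin signalling were covered by a list of 54, of which 11 (20.4%, 10.6 to 33.5) had a peak, against 8.16% of all protein-coding genes. When peaks went to the nearest start of any annotated gene, 5 of the 54 had one, against 5.91% of protein-coding genes. Their territories had a median of 73.0 kb. Of the other semaphorins 2 of 13 had a peak. Sema6a, a membrane-bound semaphorin, had 4, the strongest of them (score 112.15, rank 84, 95 tags) in an intron at -8.96 kb from its nearest start, above the score of every peak of the family. Sema6d had 1, of score 36.94.

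Among the plexins, the signalling receptors, 3 of 8 had a peak, against 8.16% of all protein-coding genes. Plxna2 had 2 (47.64 and 42.02), both far upstream, at -259.6 and -199.76 kb. Plxna1 (34.79) and Plxnc1 (30.78) had 1 each, and Plxna3 and Plxna4 had none. Territories were 192.1 to 876.7 kb for the plexins with a peak and 24.3 to 372.9 kb for those without. Of the co-receptors and other neuropilin partners 2 of 10 had a peak, again against 8.16% of all protein-coding genes. Both peaks were at long range: Vegfa, which encodes a growth factor that also binds neuropilins (45.5, 147.74 kb), and the adhesion gene Alcam (30.78, -1205.47 kb).

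Against 8.16% of all protein-coding genes, 4 of the 23 intracellular effectors had a peak. They were the tyrosine kinase gene Fyn (48.44), the kinase gene Pak1 (43.89), Farp1 (35.6), which encodes a relative of the plexin-binding exchange factor Farp2, and Mical1 (30.51), which encodes a monooxygenase that acts on actin. The collapsin response genes Crmp1, Dpysl2, Dpysl3, Dpysl4 and Dpysl5 had none. Of the 15 peaks on this list 7 held TAATTA, which was in 34.2% of all peaks. In an intron of their gene lay 7, and the share of all peaks in such introns was not computed. A peak within 100 kb of a start was found for 8 of the 54 genes, against 6.91% of all protein-coding genes.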

How the data were processed

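Flag ChIP-seq libraries (4, in 2 numbered sets) were aligned with BWA 0.5.8a to mm9 per the submitters' processing notes. For the peak caller, its threshold and any pooling, nothing is stated in the labels or the file header. A single list of 2455 peaks was deposited. Its ChIP score and background score are deposited scores without a stated scale, and its tags are a deposited whole-number count per region. A single mitochondrial peak was left out. No value per library is given, so library depth is unknown, and intervals cover counting error only.

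Here each maximum was assigned to the nearest start of any transcript of a protein-coding gene (GENCODE M1, Ensembl 65, NCBIM37, the same build). All 10 members and 54 pathway genes matched by symbol. Coordinates are 1-based. Windows of 200 bases centred on the maximum, and flanks 1 kb to each side, were read from the genome and searched on both strands. Assignment and search were checked on made-up data with known answers. Python 3.11.15, pandas 2.3.3 and scipy 1.17.1 were used, with BLASTN 2.17.0 for alignments. Every member, every peak of a member with its host and neighbouring genes, and every pathway gene with a peak was to be named. Members and lists were chosen with earlier results of these data known. Core pairs, alignments and protein-coding transcript starts were added after the data were seen.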

Additional observations from a re-analysis of the deposited data

How the results depend on the processing

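No paired analysis was possible because the list holds no value per library, and no library could be left out for the same reason. Of 150 recomputed values 133 equalled the reported one or stayed close to it, within 1.5 times for counts. Some of them could not have moved, such as counts for genes without a peak when only part of the list was used. The number that stayed is therefore not a measure of robustness. With peaks within 10 kb of a start, 0 members had a peak (0 peaks), against 3.09% of protein-coding genes, and 3 pathway genes had one. With the top-scoring 50% of peaks the members kept their count of 4, and 5 pathway genes had one (4.61% of protein-coding genes). With the top-scoring 25% of peaks 3 members (without Sema3a) and 1 pathway gene had one (2.45% of protein-coding genes). With all annotated genes 4 members and 5 pathway genes had a peak (5.91% of protein-coding genes). By tags the members' median rank was 693.5, against 397.5 by ChIP score. With 1 added to each score, all 4 still reached 10 times the background score. Starts of protein-coding transcripts alone left the members' counts the same. The 4 regions held 34 to 56 tags each, and differences among these counts were not tested.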

Other observations

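Alignment of the 4 windows to the genome, done after the data were seen, found other matching places for 2 of them. The windows of the other listed peaks were not aligned to the genome, so no share over the list can be given. With BLASTN (e-value at most 1e-5), the Sema3a window had 67 other alignments of at least 100 bases in mm9 and the Sema3e window 9. The highest identity of these was 76.1% for Sema3a and 75.5% for Sema3e. The Nrp2 and Sema3f windows had 0 at any length. Sequence like that under the Sema3a peak, which has the most homeodomain cores of the 4, is thus present at many other places in diverged form.

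The Sema3a window also aligned to the windows of 2 other listed peaks and to 0 of the 4908 flanks. These were a peak of score 50.59 at Hspa12a (80.6% identity over 67 bases) and a peak of score 40.15 at Frmd4b (74.0% over 77 bases). Both alignments begin 4 or 5 bases after the Sema3a maximum and cover its ATTA and TAATTA. Each of these 2 peaks holds TAATTA in its window, as do 34.2% of all peaks. They were found through a stretch that contains TAATTA, so its presence in them is not separate evidence. No annotation of repeats was used here, and whether the shared sequence bears on binding was not tested.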
